A study of Xenopus laevis with 8 samples.

Results

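Condensin complex genes were examined on 8 arrays of hindlimb bud RNA from the frog *X. laevis*. They were chosen by gene symbol, as every probe set whose annotated gene begins with ncap or is smc2 or smc4, and this gave 10 probe sets of 15491 that are not controls. These measure 9 genes, 4 of condensin I, 3 of condensin II and 2 ATPases shared by both complexes. All 9 passed the filter on dim features and were among 12380 genes or unnamed probe sets tested. The complex was picked out because the comparison of cyclopamine with ethanol had shown both copies of ncaph among the lower genes with the smallest p. Treatment differences of these genes are therefore a description, with no test.

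Each array held RNA pooled from 18 to 22 hindlimb buds of stage 52 tadpoles, so that animals within a pool cannot be told apart. The tadpoles had been kept for 24 h in water with cyclopamine, a plant alkaloid that blocks Smoothened and so the response to sonic hedgehog, at 1 μg/ml in ethanol, or with ethanol alone, and no transgene or other allele is named for them. There were 4 arrays per treatment, in 4 pairs of an ethanol and a cyclopamine pool that shared their clutch, day of exposure and extraction. Clutch A gave pairs 1 and 2 and clutch B pairs 3 and 4, and p-values reflect the spread between pools from 2 clutches.

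Condensins are ring-shaped protein complexes that fold chromatin into loops and give mitotic chromosomes their compact, rod-like form. The ring is a pair of SMC ATPases, SMC2 and SMC4, closed by a kleisin subunit that carries a couple of HEAT-repeat subunits. Condensin I has the kleisin CAP-H with CAP-D2 and CAP-G, and condensin II has CAP-H2 with CAP-D3 and CAP-G2. In vertebrate cells condensin II is in the nucleus before mitosis, while condensin I is largely cytoplasmic and reaches the chromosomes after the nuclear envelope breaks down. Condensin I was first purified from *Xenopus* egg extracts. *X. laevis* is allotetraploid, and its gene copies on the long and short chromosomes of each pair are marked .L and .S.

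Values below are log2 intensities after quantile normalization, in the order of pairs 1 to 4 unless stated. Differences are cyclopamine minus ethanol with the standard error (SE) of limma, a linear model with a moderated variance. The treatment fit had no term for pair or clutch, so its SE include the spread between pairs and clutches. Levels of different probe sets are not compared, since each has its own hybridization strength. All 9 genes had a mean below that of ethanol after cyclopamine, with a median difference of -0.31 beside a median of 0.001 over all features tested. The difference was below 0 in 35 of 36 comparisons of a gene within a pair, and 8 of 9 genes were lower in 4 of 4 pairs, as were 9.41% of all features. For 3 genes every cyclopamine array lay below every ethanol array, beside 2.31% of all features. No condensin gene passed an adjusted p of 0.05 in limma, in a comparison that called 0.0162% of features. At an unadjusted p under 0.05, 4 were lower, beside 3.88% of features lower by that rule. Nothing is read from these shares, as the genes were selected on this contrast. In a whole limb bud, fewer cells of a type and less RNA per cell cannot be told apart.

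The differences of the 4 condensin I genes lay between -0.64 and -0.31, and those of the other 5 between -0.31 and -0.14. These ranges overlapped, since ncaph2.L of condensin II, at -0.314, was slightly lower than ncapg.L of condensin I, at -0.310. ncaph encodes the kleisin CAP-H, which bridges the SMC heads and holds the other subunits of condensin I. Its long-chromosome copy ncaph.L measured 9.90, 9.68, 9.78 and 9.94 on the ethanol arrays and 9.41, 9.20, 9.34 and 9.22 on the cyclopamine arrays. The groups did not overlap, with 0.26 between the lowest ethanol and the highest cyclopamine array, and the pair differences lay between -0.44 and -0.72. The mean went from 9.82 ± 0.12 to 9.29 ± 0.10 (SD, n = 4), a difference of -0.53 (SE 0.098), or 1.45-fold lower. On the linear scale as deposited, its mean intensity was 906 in ethanol and 628 in cyclopamine.

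The short-chromosome copy ncaph.S measured 9.21, 8.81, 8.95 and 8.94 in ethanol and 8.29, 8.48, 8.21 and 8.37 in cyclopamine. Again no array of one treatment reached into the range of the other, with a gap of 0.33, but the pairs were less alike than for ncaph.L. Pair 1 differed by -0.92 and pair 2 by -0.33, since ethanol 1 was the highest ethanol array and cyclopamine 2 the highest cyclopamine array. The means were 8.98 ± 0.17 and 8.34 ± 0.11 (SD, n = 4), which is 1.56-fold lower after cyclopamine (log2 -0.64, SE 0.113), the largest difference of the 9 genes. Its deposited intensities averaged 507 and 327.

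CAP-D2 and CAP-G are the HEAT-repeat subunits of condensin I and contact DNA together with the kleisin. ncapd2.S measured 9.73, 9.58, 9.96 and 10.11 in ethanol and 9.38, 9.34, 9.57 and 9.64 in cyclopamine. The treatments overlapped by 0.06, where cyclopamine 4 lay above ethanol 2, but these arrays come from different clutches and within each clutch the treatments were apart. The difference was -0.36 (SE 0.139), from 9.84 ± 0.24 to 9.48 ± 0.15 (SD, n = 4). ncapg.L measured 10.21, 10.13, 10.30 and 10.37 in ethanol and 9.87, 9.85, 9.98 and 10.07 in cyclopamine. Its treatments did not overlap, by a margin of 0.06. Its difference of -0.31 (SE 0.096) was nearly the same in every pair, -0.34, -0.28, -0.32 and -0.30, with an SD over pairs of 0.026, the smallest of the 9 genes.

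**Figure D1:**
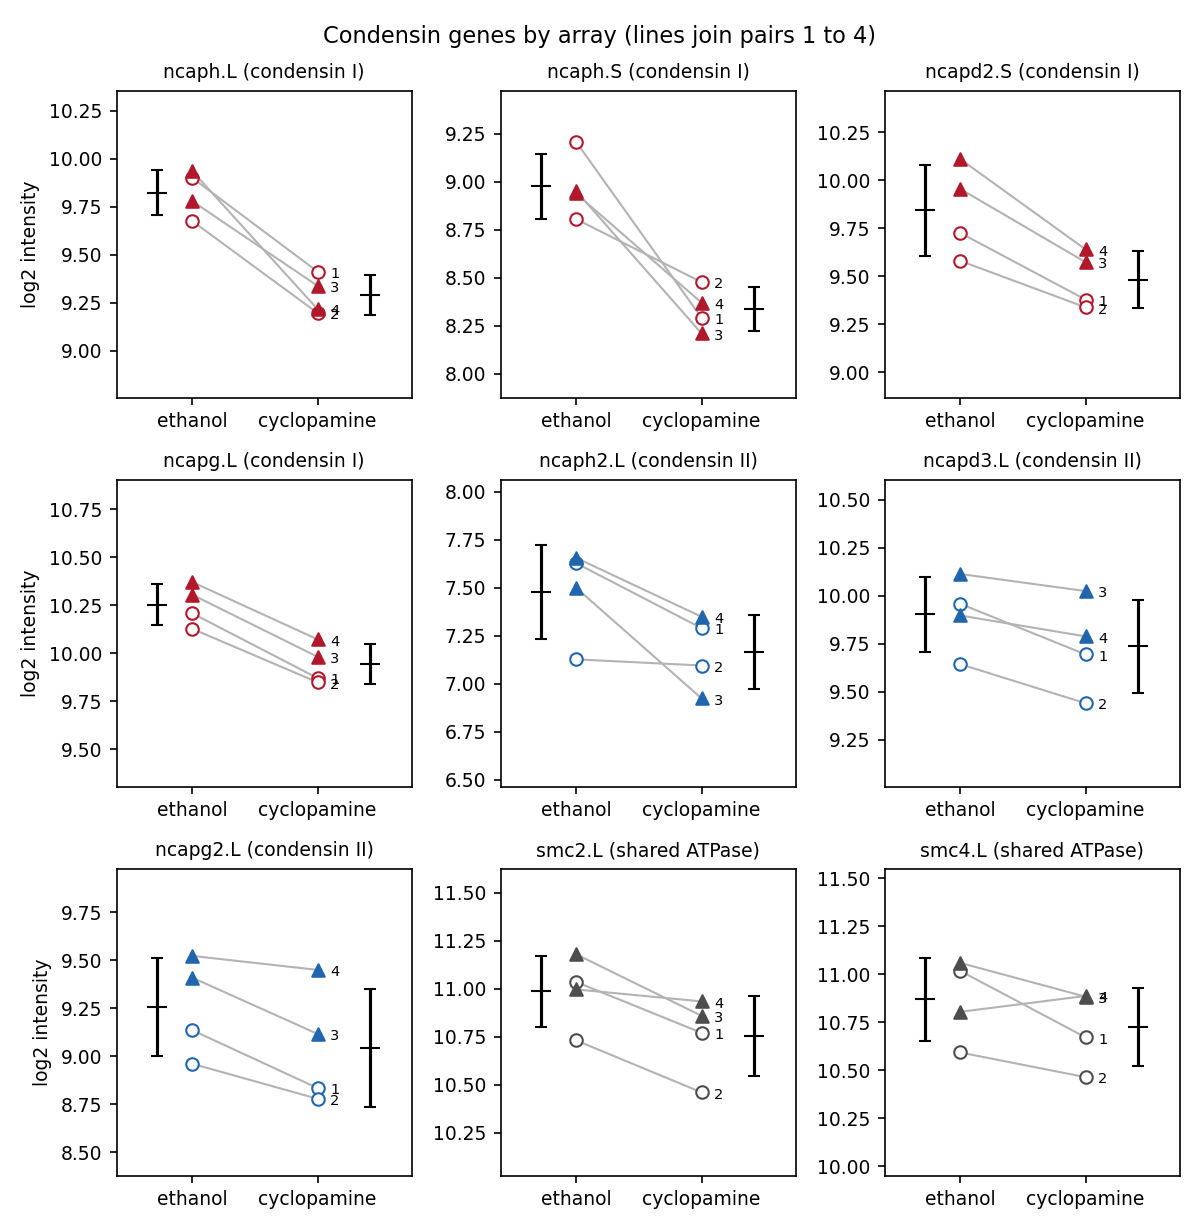
Log2 intensity (vertical axis) of each of the 9 condensin genes on the 4 ethanol and 4 cyclopamine arrays. Open circles are clutch A and filled triangles clutch B, grey lines join the arrays of a pair (numbered 1 to 4), and bars show mean ± SD. The treatments are apart for ncaph.L, ncaph.S and ncapg.L and overlap for the other 6 genes, and in every panel ethanol 2, an open circle, is the lowest ethanol array.

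The condensin II genes differed by -0.31 to -0.17, with an SD over pairs of 0.08 to 0.22. ncaph2 encodes the kleisin of that complex, CAP-H2, and was the only gene measured by more than 1 probe set. The average of both for ncaph2.L was 7.63, 7.13, 7.50 and 7.66 in ethanol and 7.29, 7.10, 6.92 and 7.35 in cyclopamine. The groups overlapped, and the pair differences ran from -0.03 in pair 2 to -0.58 in pair 3, for a difference of -0.31 (SE 0.152).

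The probe sets of ncaph2.L did not act alike. The brighter probe set measured 8.18, 8.28, 8.06 and 8.53 in ethanol and 7.74, 7.85, 7.93 and 7.67 in cyclopamine, a difference of -0.47 with the treatments apart by 0.14. It was lower in 4 of 4 pairs. The dimmer probe set was lower in 2 of 4 pairs, with a difference of -0.16 and an SD of 0.50 in each treatment. Its lowest values were 5.97 on ethanol 2 and 5.92 on cyclopamine 3, close to the floor of 5.45 set for dim values. The small pair 2 difference of the average came from this probe set, which was 0.37 higher after cyclopamine in that pair.

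CAP-D3 and CAP-G2 are the HEAT-repeat subunits of condensin II. ncapd3.L measured 9.96, 9.64, 10.11 and 9.90 in ethanol and 9.69, 9.44, 10.02 and 9.79 in cyclopamine. The difference of -0.17 (SE 0.152) was smaller than the SD within either treatment, 0.20 and 0.24, although the cyclopamine array was the lower in every pair. ncapg2.L measured 9.14, 8.96, 9.41 and 9.52 in ethanol and 8.83, 8.78, 9.12 and 9.45 in cyclopamine. Here too the difference, -0.21 (SE 0.186), lay within the spread of the arrays, 0.26 and 0.31 (SD, n = 4). That spread includes clutch, as the clutch B arrays were higher than the clutch A arrays of the same treatment. The SD over pairs was 0.11 for ncapg2.L. With a term for pair in limma the SE was 0.092 for ncapg2.L and 0.088 for ncapd3.L.

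The SMC ATPases enter both complexes. smc2.L measured 11.04, 10.73, 11.18 and 11.00 in ethanol and 10.77, 10.46, 10.86 and 10.93 in cyclopamine. Pairs 1 to 3 differed by -0.27 to -0.32 and pair 4 by -0.06, with a mean difference of -0.23 (SE 0.140). Its partner smc4.L measured 11.02, 10.59, 11.06 and 10.80 in ethanol and 10.67, 10.46, 10.88 and 10.89 in cyclopamine. It had the smallest difference, -0.14 (SE 0.146), and the only pair in which cyclopamine was higher, pair 4, by 0.08. Both ATPases overlapped between treatments.

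**Figure D2:**
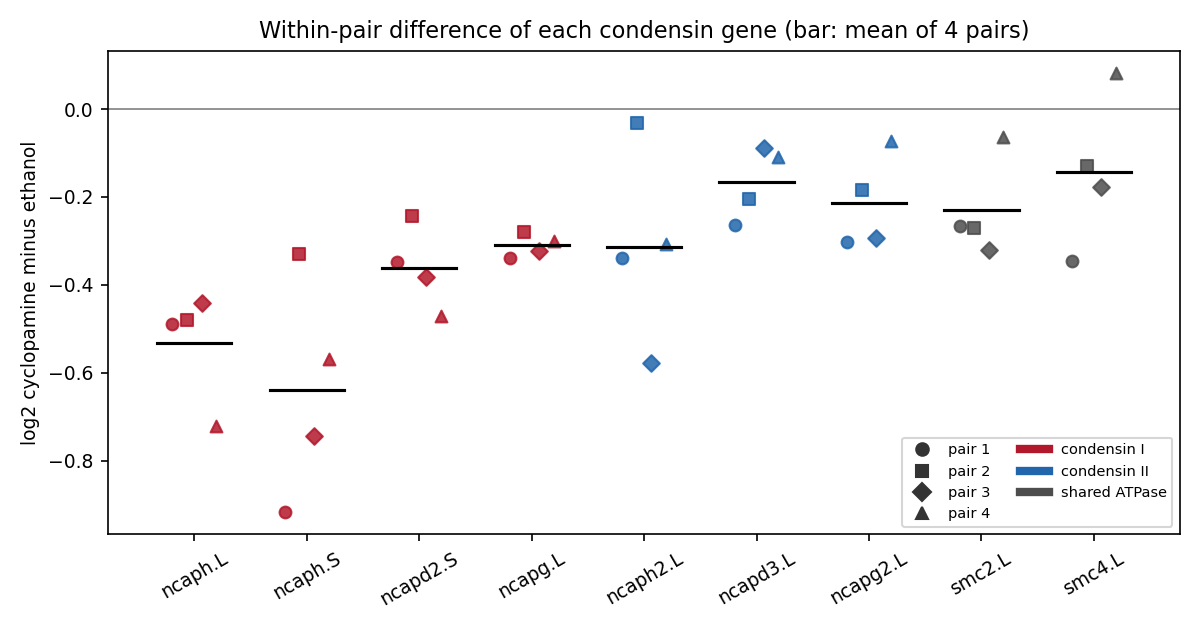
Difference of log2 intensity, cyclopamine minus ethanol (vertical axis), of each condensin gene in each of the 4 pairs, with the symbol giving the pair, the colour the subcomplex and the black bar the mean. 35 of 36 points lie below 0, and the exception is smc4.L in pair 4, at 0.08.

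Within a clutch, the 4 condensin I genes had both cyclopamine arrays below both ethanol arrays in clutch A and again in clutch B, as did 5.65% of all features. Of the 5 condensin II and ATPase genes, 1 did so in clutch A and 2 in clutch B, and 0 in both. Over all features these shares were 18.2% in clutch A and 15.8% in clutch B. The average of the probe sets of ncaph2.L did so in clutch B only, but its brighter probe set by itself did so in both clutches. Medians over the genes of a subcomplex in pairs 1 to 4 were -0.42, -0.30, -0.41 and -0.52 for condensin I. For condensin II they were -0.30, -0.18, -0.29 and -0.11, and for the ATPases -0.31, -0.20, -0.25 and 0.01. By these medians pair 4 was the lowest pair of condensin I and the pair nearest to 0 in the other groups. Not every gene followed this order. ncaph.S was lowest in pair 1 (-0.92), and ncaph2.L was nearest to 0 in pair 2 (-0.03).

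To set the subcomplexes side by side without comparing probe set levels, each gene was expressed as its deviation from its own ethanol mean and averaged over the genes of a subcomplex. The cyclopamine arrays were at -0.49, -0.51, -0.45 and -0.40 for condensin I, with an SD of 0.048. Condensin II was at -0.27, -0.44, -0.19 and -0.02, with an SD of 0.18, and the ATPases at -0.21, -0.47, -0.06 and -0.02. Like these means, ncapd2.S and ncapg.L of condensin I were lowest on cyclopamine 2 and highest on cyclopamine 4. The copies of ncaph were highest on cyclopamine 1 (ncaph.L) or cyclopamine 2 (ncaph.S). Condensin I was below condensin II on every cyclopamine array, by 0.23 on average, but the gap there ranged from -0.07 to -0.38 and overlapped that on the ethanol arrays, -0.10 to 0.13. Condensin II and the ATPases differed by -0.05 on average. These gaps use the same contrast as the choice of genes and were not tested. Condensin I includes both ncaph copies, for which the complex was picked, and its other genes differed by -0.36 and -0.31. In condensin II, the brighter probe set of ncaph2.L alone differed by -0.47.

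**Figure D3:**
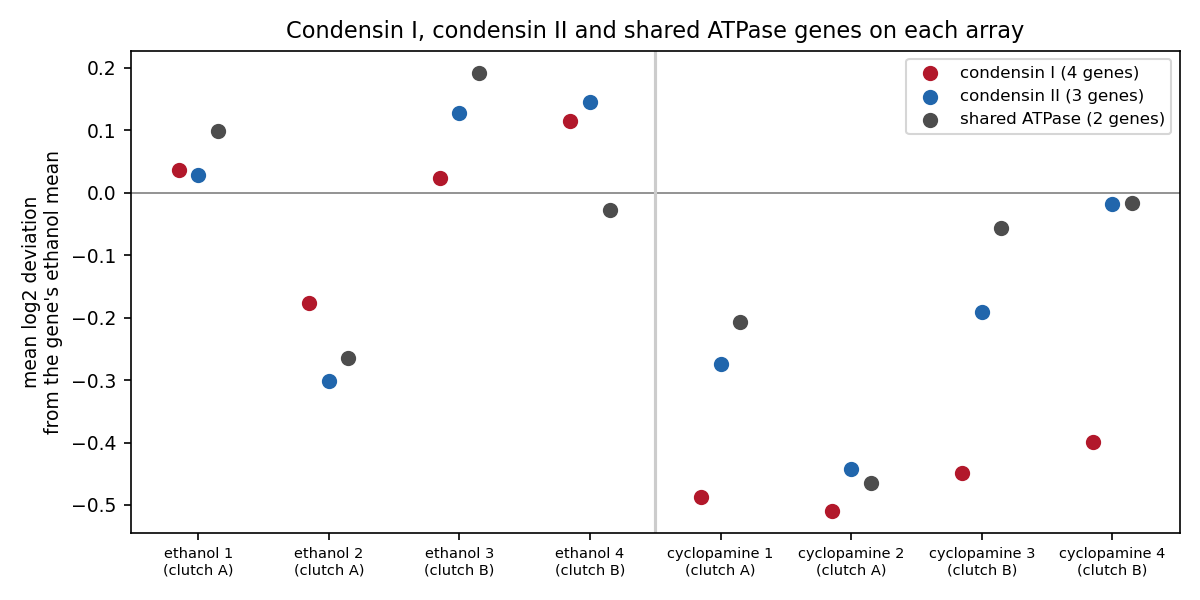
Mean deviation of the genes of condensin I (4 genes), condensin II (3 genes) and the shared ATPases (2 genes) from their own ethanol means (log2, vertical axis) on each of the 8 arrays. On the cyclopamine arrays condensin I stays between -0.40 and -0.51, while condensin II runs from -0.44 on cyclopamine 2 to -0.02 on cyclopamine 4. The condensin I mean includes both ncaph copies, and its other genes were also highest on cyclopamine 4 of these arrays.

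Single arrays moved many condensin genes at once. Ethanol 2 was the lowest ethanol array for 9 of 9 genes, by 0.24 on average from the ethanol means. This was not particular to condensin. Among the gene lists given below, ethanol 2 also had the lowest ethanol mean of cohesin (8.04) and mitosis genes (9.14), but not of S phase or housekeeping genes. Cyclopamine 2, from the same pair, was the lowest cyclopamine array for 7 of 9. Its exceptions were ncaph.S and ncaph2.L, which were lowest on cyclopamine 3. Cyclopamine 4 was the highest of its group for 6 of 9 genes, at 0.14 above the cyclopamine means. Without ethanol 2, 6 of 9 genes had every cyclopamine array below every remaining ethanol array, as did 3.7% of all features. Without cyclopamine 4 the count was 4, beside 3.42% of all features. With array medians subtracted in place of quantile normalization it was 5, beside 2.19%.

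The smaller treatment differences depended on single arrays. Without cyclopamine 2 they were -0.07 for ncapd3.L, -0.12 for ncapg2.L, -0.13 for smc2.L and -0.05 for smc4.L. Leaving out ethanol 2 gave -0.25 for ncapd3.L and -0.23 for smc4.L. That of ncapd3.L was also -0.10 without ethanol 3 and -0.26 without cyclopamine 3. For ncapg2.L it was -0.12 without ethanol 4 and -0.35 without cyclopamine 4, and for smc4.L -0.09 without ethanol 1 and -0.08 without ethanol 3. No difference of a condensin I gene or of ncaph2.L moved by more than 1.5 times when an array was left out.

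Clutch was not used to choose the genes and was tested with treatment in the model, over all features in limma. The fit had no term for pair, so the arrays of a pair counted as independent. If the pools of a pair are alike beyond their clutch, the p-values for clutch may be too small. Deviations of paired arrays from treatment means correlated at 0.35, 0.51, 0.30 and -0.10 in pairs 1 to 4. Clutch was not removed from these deviations, so they cannot show what a pair shares beyond clutch. No condensin gene passed in that test, and the estimates were above 0 for the condensin II and ATPase genes and near 0 for the kleisin of condensin I. The largest difference was that of ncapg2.L, which averaged 8.93 in clutch A and 9.38 in clutch B, a difference of 0.45 (SE 0.102, adjusted p = 0.0785). It was 0.42 in ethanol and 0.48 in cyclopamine. For ncapd2.S the clutch difference was 0.31 (SE 0.085, adjusted p = 0.103), nearly as large as its treatment difference of the opposite sign. The other clutch differences of condensin II were 0.27 for ncapd3.L and 0.07 for ncaph2.L. Those of smc2.L and smc4.L were 0.24 and 0.22, and that of ncapg.L was 0.17.

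In contrast, ncaph.L differed between clutches by 0.02 (SE 0.099, adjusted p = 0.926) and ncaph.S by -0.08 (SE 0.112, adjusted p = 0.730). The copies of ncaph, which had the largest treatment differences, thus had clutch differences smaller than their SE, as did ncaph2.L. Clutch differences were above 0 for 8 of 9 genes and for 5999 of 12380 features, with a median of 0.22 beside -0.01 over all features. At an unadjusted p under 0.05, 2 of 9 genes were higher in clutch B, beside 9.8% of all features. After adjustment in limma 0 of 9 passed, where 1.28% of features did. These calls were 66 higher and 93 lower features in clutch B, and 75 of 141 were higher with the values as deposited. Subtracting array medians lowered the median clutch difference of condensin genes to 0.10 and turned that of ncaph.L to -0.03.

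Whether the treatment difference itself changed between the clutches was tested by an interaction term. In limma 0 of 9 condensin genes passed after adjustment (adjusted p = 0.999 for each), nor did any feature, a share of 0%. At an unadjusted p under 0.05 the count was 0 of 9, where 3.72% of all features passed. Their estimates ran from -0.26 (SE 0.321) for ncaph2.L to 0.19 (SE 0.264) for smc4.L, with SE values over the 9 genes from 0.162 to 0.321. For ncapg.L the difference was -0.31 in each clutch.

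**Figure D4:**
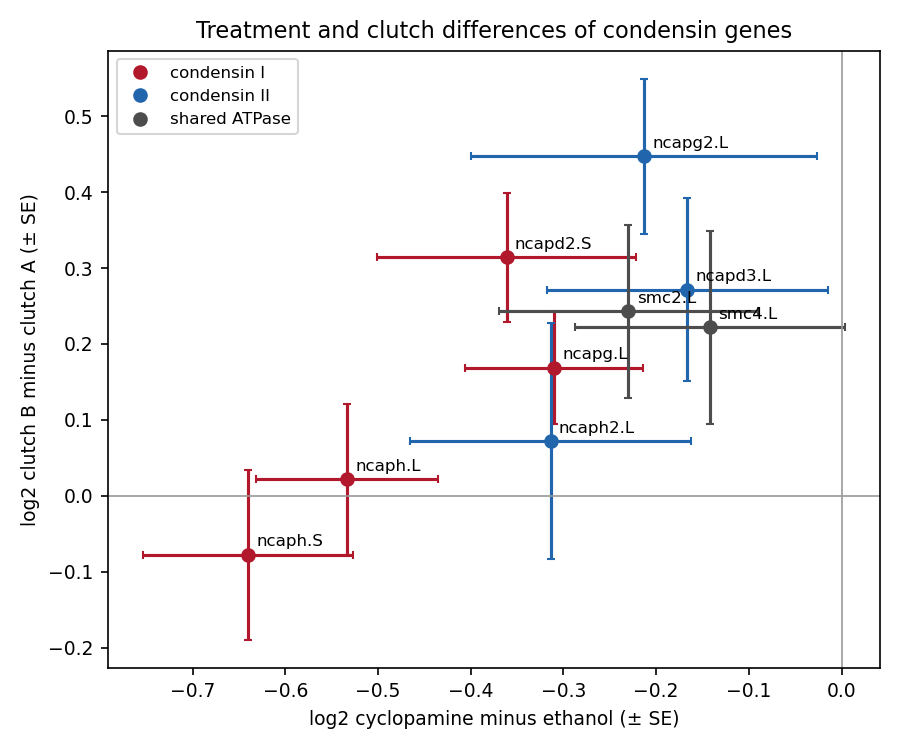
Treatment difference (log2 cyclopamine minus ethanol, horizontal axis) against clutch difference (log2 clutch B minus clutch A, vertical axis) of the 9 condensin genes, with bars of ± SE and colour for the subcomplex. ncaph.S and ncaph.L lie farthest to the left and near a clutch difference of 0, and ncapg2.L is highest at 0.45.

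Only ncaph was measured as an .L and an .S copy. RefSeq lists 11 condensin symbols for *X. laevis*, and ncaph2.S and smc2.S were not analysed here. The difference of ncaph.L and ncaph.S within an array was 0.69, 0.87, 0.83 and 1.00 in ethanol and 1.12, 0.72, 1.13 and 0.85 in cyclopamine. The treatments overlapped, with means of 0.85 ± 0.13 and 0.95 ± 0.20 (SD, n = 4), and the difference between copies did not separate them. Between clutches the difference changed by 0.10 (SE 0.140, adjusted p = 0.750 in limma over 914 such pairs of copies, of which 2.84% were called). Whether a probe set for either copy also binds RNA of the other was not tested.

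After removal of the treatment means, each gene was compared with the mean of the other 8 over the 8 arrays. Pearson's r was 0.90 for smc2.L, 0.86 for ncapg.L, 0.83 for smc4.L and 0.80 for ncapd2.S. It was 0.79 for ncapg2.L, 0.73 for ncapd3.L and 0.58 for ncaph2.L. The copies of ncaph followed the others least, at 0.44 for ncaph.L and 0.09 for ncaph.S. These r describe arrays that share scaling, pair and clutch, and were not tested. Of 5872 other named genes above the floor on all arrays, the 8 whose deviations were most like the mean of the condensin genes were zmym2.L (r = 0.98), ldb1.S (0.98), stau1.L (0.98), top2a.L (0.97), donson.L (0.97), pabpc1.S (0.97), fgd6.S (0.97) and snrnp70.L (0.97). Among them, top2a encodes topoisomerase II alpha, which disentangles DNA in mitosis beside condensin.

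Other genes of chromosome structure and the cell cycle are given beside the condensins by their counts at an unadjusted p under 0.05, since the treatment contrast called hardly any feature after adjustment. By this rule 3.88% of all features were lower. Cohesin is the related SMC complex that holds sister chromatids together. Its list also holds regulators of the complex, while that of condensin holds subunits only. The cohesin list had 1 of 19 genes lower, near the share of all features, 0 higher and a median of -0.09. The lower gene was cdca5.L (-0.54), which encodes sororin. The genes rad21.L (-0.27) and stag2.L (-0.17), both cohesin subunits, followed by p but did not pass. Cohesin genes were mixed in direction, with 13 of 19 differences below 0 and the others above it. Among the others was rad21.S (0.09), the short-chromosome copy of rad21. Of 4 genes of the SMC5-SMC6 complex, which acts in DNA repair, 1 was lower (smc5.S, -0.44) and 0 higher, with a median of -0.23 and values of -0.38 for nsmce1.L and -0.07 for nsmce4a.L. The condensin median of -0.31 was the lowest of the SMC complex lists, with no test of that difference. That median includes both ncaph copies, for which the complex was picked. Medians of condensin II (-0.21) and the ATPases (-0.19) were nearer to 0 than that of SMC5-SMC6. The condensin genes were chosen on this contrast.

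The mitotic chromosome scaffold list also holds genes of other chromatin and spindle proteins. Of its 12 genes tested, 3 were lower and 0 higher, with a median of -0.27. They were the chromokinesins kif22.S (-0.48) and kif4a.S (-0.46) and the chromatin protein gene hmgb2.S (-0.25). Kinases and other regulators that act on condensin or beside it in mitosis had 10 of 26 genes lower and 0 higher, with a median of -0.26. These included incenp.L (-0.38), a partner of Aurora B, plk1.S (-0.39), the Polo kinase, and ccnb2.S (-0.48), a B-type cyclin. Mitosis genes had 15 of 28 lower and 0 higher, with a median of -0.36. Those of smallest p in limma were nusap1.S (-0.88), racgap1.L (-0.76) and ska3.L (-0.67). They act on the spindle, in cytokinesis and at the kinetochore. S phase genes had 27 of 37 lower and 0 higher, with a median of -0.42, among them the chromatin assembly gene chaf1a.L (-0.67) and the replication genes gins3.L (-0.50) and cdt1.L (-0.39). Over all 12380 features, 480 were lower and 297 higher by this rule. The condensin I median of -0.45 was near those of the S phase and mitosis genes. Medians of condensin II, -0.21, and the ATPases, -0.19, lay between these and that of housekeeping genes, -0.04, of which 0 of 14 were lower. This order was not tested, and all these lists were chosen with earlier results of these data known. The condensin I list also holds both ncaph copies, for which the complex was picked. Its other genes, ncapd2.S and ncapg.L, differed by -0.36 and -0.31.

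**Figure D5:**
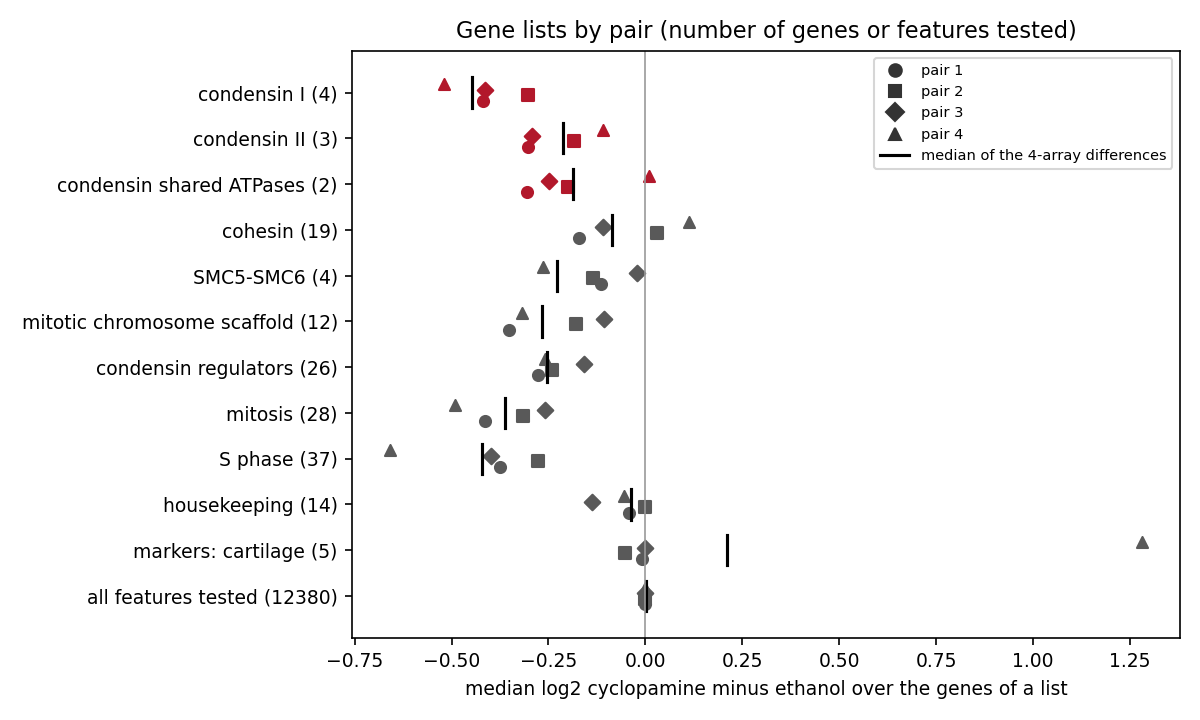
Median difference of log2 intensity, cyclopamine minus ethanol (horizontal axis), over the genes of each list in pairs 1 to 4 (symbols), with the median of the differences over all 8 arrays as a black line and the number of genes in brackets. Condensin lists are red, and all 4 pairs of condensin I lie between -0.30 and -0.52, while pair 4 of the cartilage markers is at 1.28.

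Tissue composition was read from marker genes of the bud and of the other cells that it can hold. Limb markers were present, such as pitx1.L at 11.37 and hoxd13.S at 10.42 in ethanol, and tbx5.S, a forelimb gene, was at or near the floor on all arrays. Of 13 limb mesenchyme genes, hoxd13.S was lower (-0.59) and meis1.S (0.39) and msx2.L (0.34) were higher at an unadjusted p under 0.05. By that rule 480 of all 12380 features were lower and 297 higher. The median of the limb mesenchyme genes was 0.10. Of 5 cartilage genes (median 0.21), matn1.L was at or near the floor on all arrays and 0 passed in either direction, and their mean was 8.12 to 8.65 in ethanol and 8.36 to 8.61 on cyclopamine 1 to 3, but 9.34 on cyclopamine 4. On that array the S phase genes had their lowest mean, 8.65, beside 8.90 to 9.04 on the other cyclopamine arrays, while 6 of 9 condensin genes had their highest cyclopamine value.

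Muscle markers (12 genes, 0 passed, median 0.34) ranged from 7.30 to 8.50 in ethanol and from 7.47 to 8.69 in cyclopamine. Their medians in pairs 1 to 4 were 0.07, 0.56, -0.03 and 1.04. Epidermal markers (11 genes, median 0.02) ranged from 8.39 to 9.41 and from 8.30 to 9.48, with a pair 4 median of -1.21. Red blood cell markers (7 genes, median -0.05) ranged from 9.72 to 10.28 and from 9.79 to 10.04, and endothelial markers (4 genes, median 0.04) from 7.75 to 8.12 and from 7.50 to 8.36. Of 3 macrophage markers on the array, only coro1a.S (0.06) was above the floor on any array, and it ranged from 6.94 to 7.64 and from 7.01 to 7.75. Of 9 nerve and glial markers on the array 6 were tested. All 6 were at the floor on at least 1 array, with list means of 5.45 to 5.70 and a median difference of 0.01. The part of these differences in composition in the condensin values was not tested.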

How the data were processed

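RNA from 8 pools of hindlimb buds was hybridized to the Affymetrix array for Xenopus laevis. The authors deposited linear intensities, normalized per the labels. For background correction, summarization and software, the steps were not given in the sources used here, and a mean trimmed by 2% at either end was 500.07 to 500.08 on every array. The 120 controls were left out. Intensities were quantile-normalized, set to at least their 20th percentile (43.725) and log2-transformed. Where a symbol had several probe sets they were averaged, .L and .S remaining separate, and 1338 of 13718 features at the floor on all arrays were left out. Symbols are those of the array's annotation, and all 10 condensin probe sets carry the same symbol in the RefSeq table of Xenopus_laevis_v10.1, used for names only.

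Treatment, clutch and interaction were fitted with limma 3.58.1 in R 4.3.3 over all 12380 features, with p-values adjusted by Benjamini-Hochberg and called under 0.05. The scripts were checked on simulated data, and figures were drawn with matplotlib 3.10.9. The condensin genes and all gene lists were chosen with earlier results of these data known. All condensin genes are named, with up to 3 genes of smallest treatment p per other list and the 8 genes most like the condensin mean. Marker genes of composition are named only in part. pitx1.L, tbx5.S and the cohesin gene rad21.S were named after their values were seen. The study's methods state that a pair shares clutch, day of exposure and extraction. Deviations of paired arrays from treatment means, with clutch not removed, correlated at 0.35, 0.51, 0.30 and -0.10 in pairs 1 to 4. Pairing rests on the statement in the study's methods. Alternatives were other scalings and floors, a filter on dim features, the brightest or each probe set of a gene, a pair or clutch block, the methods' t-test, and leaving out each array. The number of arrays limits the precision.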

Additional observations from a re-analysis of the deposited data

How the results depend on the processing

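The median condensin difference of -0.31 lay between -0.35 and -0.25 in 17 alternatives, and was -0.31 with the replicate block, which pairs the arrays. In this balanced design a pair or clutch block cannot change a difference. The lower floor and the filter on dim features also left the condensin differences unchanged, so these settings are no check on them. All 144 alternative values of the single genes, these repeats included, were below 0. Of them, 12 moved by more than 1.5 times, all of ncapd3.L, ncapg2.L, smc2.L or smc4.L with an array left out. No condensin gene passed an adjusted p of 0.05 (lowest 0.30 by the methods' t-test and 0.31 in limma, for ncaph.L without ethanol 2). The number of condensin genes with treatments apart was 3. It was 5 with array medians subtracted (2.19% of all features) and 4 with the brightest probe set of a gene (2.32%). With an array left out it was 3 to 6 (3.01% to 4.99% of all features, and 3.7% where it was 6). The number lower at an unadjusted p under 0.05 was 4, 5 with the replicate block (5.48% of all features), and 3 to 6 over the alternatives (2.88% to 6.01%). These counts were added after the data were seen. Features called for treatment numbered 2, 4 with clutch as a block, 1 by the methods' t-test (706 before adjustment, with 4 condensin genes, and 0 after), and 1 to 2 with an array left out.

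Features called for clutch numbered 159, 64 with a floor at the 10th percentile, 92 with log2(value + 16) and 14 to 72 with an array left out, and pairs of copies called numbered 26, 8 with that floor and 8 to 15 with an array left out. Condensin genes called for clutch or interaction stayed at 0 throughout. The clutch difference of ncaph.L was -0.030 with array medians subtracted and -0.033 to 0.074 with an array left out, and that of ncaph2.L was -0.054 to 0.18 (-0.054 without ethanol 2). The cause of these changes was not tested.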
